A study of Homo sapiens with 5 samples.

Results

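The 10 genes described here belong to the ATF4 branch of the cellular stress response: ATF4, DDIT3, TRIB3, SESN2, DDIT4, PPP1R15A, ASNS, CHAC1, PSAT1 and STC2. They were taken by symbol from tables that together list 12497 genes. The members were chosen by their known role and by their FPKM in these same libraries, in which their change in si-LY6E-DT against si-NC had already been seen, so their values are a description and not a test. All 10 had a row in 2 of the 5 tables, and 9 in the other 3, where STC2 had none. All libraries come from MDA-MB-231, a line of mesenchymal character from a human breast tumour without hormone receptors, and each group is 1 library. They were si-LY6E-DT (LY6E-DT, a long noncoding RNA, targeted with a Smart Silencer, a mix of siRNAs and antisense oligonucleotides), a library labelled si-HNRNPC (the nuclear U-rich RNA binding protein HNRNPC, which the label says was targeted), si-NC (the negative control of the LY6E-DT experiment), the RNA immunoprecipitate taken with an HNRNPC antibody, and the lysate input of that immunoprecipitation (RIP), whose cells the labels do not call knocked down. The cells grew in L15 medium with serum. The treatment text crosses the silencers of the targets, so each library is taken by its own label, and an antibody control of the precipitation was not analysed here. With 1 library per group, the differences given below could not be set against a spread between replicates, and there are no SDs or p-values. "Rose" and "fell" mean a change of at least 2-fold in log2((FPKM + 1)/(control FPKM + 1)), where FPKM is a level scaled to gene length and to the total of the library. This is a rule of size for genes with a mean FPKM of at least 1 in the pair of libraries, and it understates the change of low genes.

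ATF4 is a transcription factor that is made mainly when translation initiation is held back. Kinases that sense unfolded proteins, amino acid shortage, heme shortage or double-stranded RNA phosphorylate the initiation factor eIF2, which lowers protein synthesis in general but lets ribosomes reach the ATF4 coding sequence past upstream reading frames. ATF4 then raises genes for amino acid supply, for the recovery of translation and, under lasting stress, for cell death. Because much of this control acts on translation, the ATF4 mRNA level is only a partial readout of the protein, which was not measured here.

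The libraries themselves set limits on what the members can show. HNRNPC mRNA had 48.8 FPKM in the library labelled si-HNRNPC, compared with 52.2 in si-NC and 67.4 in the RIP input, so its level goes against that label. Its lowest level of all libraries, 40.1 FPKM, was in si-LY6E-DT. LY6E-DT was not analysed here, so the si-LY6E-DT label was not checked by its target. All 6 mesenchymal markers were listed in every library (summed FPKM 652 to 824), but single markers set libraries apart. FN1 had 101 FPKM in si-LY6E-DT, 7.82 in the library labelled si-HNRNPC, 82.7 in si-NC, 7.55 in the HNRNPC immunoprecipitate and 6.97 in the RIP input, and CAV1 had 8.12 FPKM in the RIP input alone and at least 43.4 elsewhere. Of 8 luminal epithelial markers, ESR1, PGR and CDH1 were in none of the tables. The other 5, ERBB2, EPCAM, GATA3, KRT8 and KRT18, were listed in every library (sum 7.53 to 105). Most of that sum without antibody was keratin: KRT18 ran from 36.6 FPKM (RIP input) to 47.2 (si-LY6E-DT). KRT8 ran from 11.96 FPKM (the library labelled si-HNRNPC) to 44.6 (si-LY6E-DT). ERBB2, EPCAM and GATA3 stayed at or below 8.61 FPKM in all libraries. Of 5 leukocyte markers PTPRC, CD3E and CD79A were unlisted, and the sum of 4.86 to 74.8 FPKM was almost all CD68, which had 7.86 FPKM in si-LY6E-DT, 74.8 in the library labelled si-HNRNPC, 4.86 in si-NC, 17.4 in the HNRNPC immunoprecipitate and 63.3 in the RIP input. Fibroblast markers summed to at most 3.82 FPKM and endothelial markers to at most 1.203. Depth is unknown for every library. Mitochondrially encoded mRNAs held 29.8% of all FPKM in the RIP input and 7.20% to 9.92% in the remaining libraries.

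**Figure D1:**
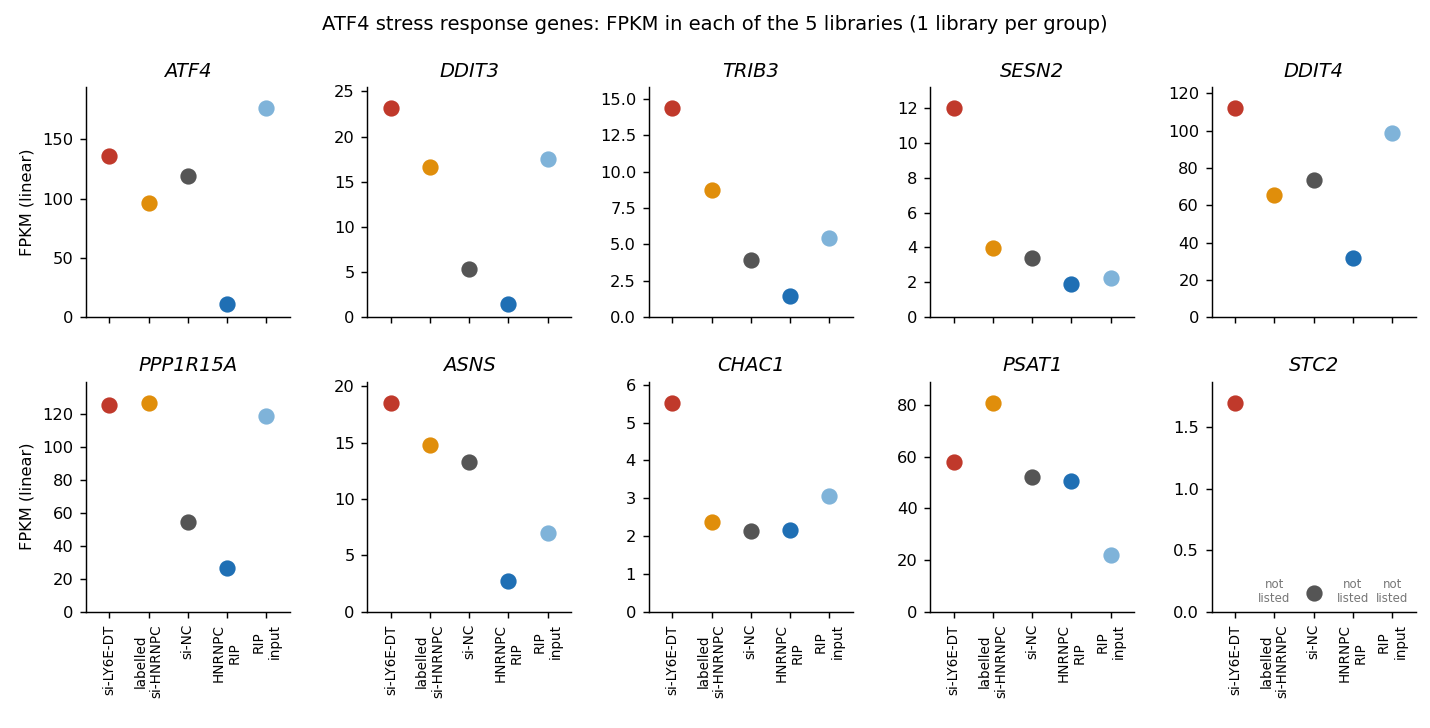
FPKM (linear axis starting at 0) of each of the 10 genes in the 5 libraries, 1 point per library, with a separate scale for each gene. DDIT3, TRIB3, SESN2, DDIT4, CHAC1 and ASNS were highest in si-LY6E-DT, and ATF4 was lowest in the HNRNPC immunoprecipitate, at 11.2 FPKM.

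The transcription factors of the branch were read first. ATF4 (ENSG00000128272.14_2; chromosome 22, 39519695 to 39522685, plus strand, GRCh38) stood at 136 FPKM in si-LY6E-DT, 96.3 in the library labelled si-HNRNPC, 119 in si-NC, 11.2 in the HNRNPC immunoprecipitate and 176 in the RIP input. In the 4 libraries without antibody it was thus an abundant mRNA, above 96.8% to 98.8% of the genes listed, and in si-LY6E-DT it differed from si-NC by only 0.19 on the log2 scale. DDIT3 (ENSG00000175197.11_3; chromosome 12, 57516588 to 57521737, minus strand) encodes CHOP, a transcription factor that ATF4 induces and that pairs with C/EBP factors under lasting stress. It stood at 23.1 FPKM in si-LY6E-DT, 16.6 in the library labelled si-HNRNPC, 5.31 in si-NC, 1.48 in the HNRNPC immunoprecipitate and 17.5 in the RIP input. Of the 4 libraries without antibody, si-NC was the one set apart, by a lower DDIT3 level. DDIT3 shares exons on its strand with AC022506.1, which has no row in the tables, and it overlaps MARS and MBD6 on the other strand, so its value is uncertain wherever reads were assigned without strand. MARS, which encodes a tRNA synthetase, stood at 18.05 FPKM in si-LY6E-DT, 14.5 in the library labelled si-HNRNPC, 15.1 in si-NC and 13.2 in the RIP input, and so lay within 2-fold across the libraries without antibody. MBD6 stood at 2.96 FPKM in si-LY6E-DT, 2.05 in the library labelled si-HNRNPC, 1.94 in si-NC and 4.85 in the RIP input. Like DDIT3, MBD6 was lowest in si-NC among these libraries. A part of either gene in the DDIT3 values was not tested.

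The feedback genes of the branch come next. TRIB3 (ENSG00000101255.10_3; chromosome 20, 362835 to 397559, plus strand), a pseudokinase that DDIT3 and ATF4 induce and that in turn restrains ATF4 activity, stood at 14.4 FPKM in si-LY6E-DT, 8.78 in the library labelled si-HNRNPC, 3.97 in si-NC, 1.47 in the HNRNPC immunoprecipitate and 5.42 in the RIP input. Here si-LY6E-DT was the highest library and si-NC the lowest of those without antibody. PPP1R15A (ENSG00000087074.7_3; chromosome 19, 48872392 to 48876057, plus strand) encodes GADD34, the subunit that brings protein phosphatase 1 to phosphorylated eIF2 and so restarts translation. It stood at 126 FPKM in si-LY6E-DT, 127 in the library labelled si-HNRNPC, 54.6 in si-NC, 26.4 in the HNRNPC immunoprecipitate and 119 in the RIP input. The other libraries without antibody thus lay close together and si-NC lay below them.

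SESN2 and DDIT4 damp the growth kinase complex mTORC1. SESN2 (ENSG00000130766.4_2; chromosome 1, 28259527 to 28282491, plus strand), a leucine sensor that holds mTORC1 off through the GATOR complexes, stood at 11.98 FPKM in si-LY6E-DT, 4.0 in the library labelled si-HNRNPC, 3.42 in si-NC, 1.92 in the HNRNPC immunoprecipitate and 2.26 in the RIP input. No library other than si-LY6E-DT was above 4.0 FPKM for SESN2, and the immunoprecipitate and its input lay lowest. DDIT4 (ENSG00000168209.4_2; chromosome 10, 72273920 to 72276036, plus strand) encodes REDD1, which acts on mTORC1 through the TSC complex and also answers to hypoxia and glucocorticoids. It stood at 112 FPKM in si-LY6E-DT, 65.8 in the library labelled si-HNRNPC, 73.4 in si-NC, 31.7 in the HNRNPC immunoprecipitate and 98.9 in the RIP input. The libraries without antibody spanned less than 2-fold for DDIT4, unlike for SESN2. DDIT4 overlaps the antisense gene DDIT4-AS1, which has no row in the tables.

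The metabolic genes differed from one another. CHAC1 (ENSG00000128965.11_2; chromosome 15, 40952962 to 40956519, plus strand), an enzyme that degrades glutathione and is induced through ATF4, was a low mRNA at 5.53 FPKM in si-LY6E-DT, 2.37 in the library labelled si-HNRNPC, 2.14 in si-NC, 2.16 in the HNRNPC immunoprecipitate and 3.07 in the RIP input. ASNS (ENSG00000070669.16_3; chromosome 7, 97852118 to 97872542, minus strand), which makes asparagine, stood at 18.6 FPKM in si-LY6E-DT, 14.8 in the library labelled si-HNRNPC, 13.3 in si-NC, 2.75 in the HNRNPC immunoprecipitate and 6.94 in the RIP input. PSAT1 (ENSG00000135069.13_2; chromosome 9, 78297143 to 78330093, plus strand), an enzyme of serine synthesis, stood at 58.1 FPKM in si-LY6E-DT, 81.1 in the library labelled si-HNRNPC, 52.4 in si-NC, 50.6 in the HNRNPC immunoprecipitate and 21.8 in the RIP input. ASNS and PSAT1, the amino acid synthesis genes, were therefore lowest in the RIP input among the libraries without antibody, and PSAT1 was highest in the library labelled si-HNRNPC. STC2 (ENSG00000113739.10_2; chromosome 5, 173314713 to 173329503, minus strand), a secreted glycoprotein, was listed at 1.70 FPKM in si-LY6E-DT, against 0.153 in si-NC, with a mean too low for the comparison. The summed FPKM of the listed members was 507 in si-LY6E-DT, 417 in the library labelled si-HNRNPC, 327 in si-NC, 130 in the HNRNPC immunoprecipitate and 451 in the RIP input.

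ASNS, CHAC1 and PPP1R15A carry in their promoters a short motif tied to this pathway, and the sites are shown because they are the DNA letters that ATF4 and its partners are known to read. RefSeq promoters on GRCh38.p14, from 250 bases before to 50 bases after each annotated start, were found for all 10 genes in 15 windows. They were searched on both strands for the C/EBP-ATF composite element (CARE, TGATGNAAN), the cyclic AMP response element (CRE, TGACGTCA) and the endoplasmic reticulum stress element (ERSE). The first lines below are the CARE sites of ASNS (chr7:97872458-97872486, minus strand, motif 68 to 60 bases before the start) and CHAC1 (chr15:40953251-40953279, plus strand, motif 210 to 202 bases before the start and on the opposite strand), and the last is the CRE of PPP1R15A (chr19:48872352-48872381, plus strand, motif 58 to 51 bases before the start). The RefSeq starts differ from those of GENCODE 29, so the ASNS and CHAC1 sites lie inside the gene intervals given above. Capitals mark the motif.
ASNS: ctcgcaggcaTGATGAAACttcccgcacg
CHAC1: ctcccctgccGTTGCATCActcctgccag
PPP1R15A: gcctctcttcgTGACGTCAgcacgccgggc
Of all 35116 promoter windows, 3.61% held the CARE letters, 1.85% the CRE and 0.0769% the ERSE, and no member held the ERSE. The windows of ATF4, DDIT3, TRIB3, SESN2, DDIT4, PSAT1 and STC2 held none of the 3 motifs, which says nothing of sites elsewhere in these genes. The shares above count windows, and the 10 members had 15 windows, so they are not shares of genes. Of the genes with a motif here, CHAC1 and PPP1R15A rose in si-LY6E-DT and ASNS did not pass 2-fold.

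In the library labelled si-LY6E-DT, 5 of the 9 members that passed the filter rose against si-NC and none fell, where 1.66% of all 10473 genes rose and 0.888% fell. In bulk RNA, more cells with an mRNA and more of it per cell cannot be told apart. DDIT3 rose by 1.94 on the log2 scale, TRIB3 by 1.63, SESN2 by 1.56, PPP1R15A by 1.19 and CHAC1 by 1.06. DDIT4 (0.60), ASNS (0.45), ATF4 (0.19) and PSAT1 (0.15) were higher but did not reach 2-fold. The rank of the change among all genes tested was 23 for DDIT3, 34 for TRIB3, 38 for SESN2, 105 for PPP1R15A and 155 for CHAC1, counted from the largest rise. CHAC1 was the member just past the threshold and DDIT4 the one nearest below it. The median over the members tested was 1.06, beside 0.04 over all genes tested. With ATF4 mRNA little changed, DDIT3 came to 17.1% of the ATF4 level in si-LY6E-DT, against 4.47% in si-NC, and TRIB3 to 10.6%, against 3.34%. These higher ratios were not particular to si-LY6E-DT. In the library labelled si-HNRNPC DDIT3 came to 17.3% and TRIB3 to 9.12%, and in the RIP input DDIT3 to 9.92% and TRIB3 to 3.07%. PSAT1 was at 42.8% of the ATF4 level in si-LY6E-DT, against 44.1% in si-NC. These ratios are of FPKM within 1 library and so do not depend on its total.

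Base composition moved with this comparison. When 10384 genes were put in 4 equal bins by transcript GC content, the median log2 change of si-LY6E-DT against si-NC was −0.12 in the bin with the lowest GC, −0.01 and 0.10 in the next bins and 0.19 in the highest. CHAC1 (61.3% GC), TRIB3 (60.9%), SESN2 (59.5%), PPP1R15A (58.8%) and DDIT4 (58.1%) lay in the highest bin, and PSAT1, at 42.3%, had the lowest GC of the members. After the median change of genes of like GC was taken away, DDIT3 (1.86), TRIB3 (1.45) and SESN2 (1.36) still passed 2-fold, while PPP1R15A, at 0.99, and CHAC1, at 0.88, did not. The control also mattered. With the RIP input as control, a setting chosen after the data were seen, 4 members were at least 2-fold higher in si-LY6E-DT, where 15.9% of 10366 genes were higher and 9.96% lower. These were SESN2 (1.99), PSAT1 (1.38), ASNS (1.301) and TRIB3 (1.26), while CHAC1 (0.68) did not reach 2-fold and DDIT3 (0.39) and PPP1R15A (0.08) differed little. Against the same input si-NC was itself higher in PSAT1 (1.23), ASNS (0.85) and SESN2 (0.44) and lower in TRIB3 (−0.37).

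The other genes of the pathway, from 8 lists chosen with earlier results known, were read in the same comparison. Of 21 other ATF4-linked regulators and targets, 4 rose and none fell (median 0.33), where 1.66% of all 10473 genes rose and 0.888% fell. Those that rose were TXNIP, ATF3, GADD45A and BCL2L11. TXNIP, an inhibitor of thioredoxin, stood at 64.6 FPKM in si-LY6E-DT, against 17.6 in si-NC. GADD45A, a growth arrest gene that p53 also drives, stood at 120.3 FPKM in si-LY6E-DT, against 55.2 in si-NC. ATF3, a partner of ATF4 in the early response, was at 5.61 FPKM in si-LY6E-DT, against 1.33 in si-NC, and the death-promoting BCL2L11 at 2.79 FPKM in si-LY6E-DT, against 0.800 in si-NC; both are low and were named after their values were seen, to complete the count.

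Amino acid supply was read against the 1.66% of all 10473 genes that rose and the 0.888% that fell, and with 1 gene past 2-fold in 3 lists it was near these shares. Of 9 amino acid transporters 1 rose (median 0.22): SLC1A5, a glutamine carrier, stood at 59.8 FPKM in si-LY6E-DT, against 26.5 in si-NC. None of 9 genes of serine, glycine, one-carbon and proline synthesis reached 2-fold (median 0.16), with CTH, which makes cysteine, nearest at 6.90 FPKM in si-LY6E-DT against 3.59 in si-NC. None of 20 cytosolic tRNA synthetases did (median 0.06), with AARS at 34.9 FPKM in si-LY6E-DT, against 23.8 in si-NC.

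No count for the sensors and the parallel arms stood apart from those same shares of all genes. No gene passed among 19 for eIF2, its kinases and its exchange factor (median −0.06), nor among 17 for mTORC1 and its regulators (median 0.09), nor among 20 of the IRE1 and ATF6 arms of the unfolded protein response (median 0.03). In that last list the transcription factor XBP1 was farthest from its control, at 36.2 FPKM in si-LY6E-DT, against 21.1 in si-NC. Of 18 p53 targets only GADD45A rose (median 0.01). SESN2 and DDIT4 are also known to answer to p53, which is mutant in this line, and a part of p53 here was not tested. Beside the other lists, the median of all 10473 genes was 0.04.

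**Figure D2:**
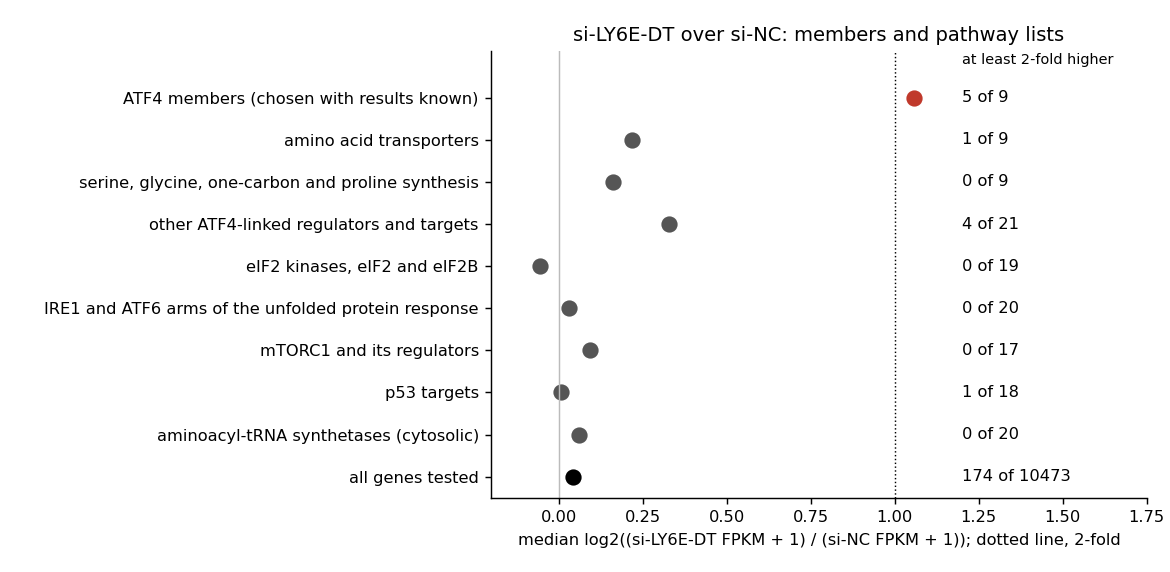
Median log2 change of si-LY6E-DT over si-NC (horizontal axis) for the 9 members that passed the filter, for 8 pathway lists and for all genes tested, with the number of genes at least 2-fold higher at the right. The members (median 1.06), whose choice was made with this comparison known, lie above the 8 lists, whose medians run from −0.06 to 0.33.

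With si-NC as control, the members split in the library labelled si-HNRNPC. DDIT3 rose by 1.48 and PPP1R15A by 1.205, TRIB3 lay just below 2-fold at 0.98, and the other six were within 2-fold, from ATF4 at −0.30 to PSAT1 at 0.62. Thus 2 of 9 rose and none fell, where 12.4% of 10247 genes rose and 9.44% fell. The members' median was 0.18, beside 0.04 for all genes. SESN2 (0.18) and CHAC1 (0.10), which rose in si-LY6E-DT, showed little difference here; both comparisons share si-NC, and the difference between them was not tested. Quantile normalization brought PPP1R15A to 0.88, and the correction for GC content brought it to 0.87.

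The same library set against the RIP input gave another picture. DDIT3 (−0.07) and PPP1R15A (0.10) were nearly level, and PSAT1 rose by 1.85, the only one of 9 to do so, where 9.11% of 10185 genes rose and 4.03% fell. ASNS lay just below 2-fold at 0.99, and ATF4 was lower at −0.87. Centring on the median of all genes, which was 0.15 here, brought ATF4 past 2-fold at −1.01, with 6.53% of genes then rising and 6.10% falling. Between si-NC and the RIP input, whose labels name no targeted gene, si-NC was lower than the RIP input in DDIT3 (−1.55) and PPP1R15A (−1.11) and higher in PSAT1 (1.23), so that 1 member was at least 2-fold higher and 2 lower, where 14.2% of 10264 genes were higher and 10.4% lower. After centring on the median, 11.9% were higher and 13% lower. Under quantile normalization DDIT3 (−1.65) and PSAT1 (1.33) still passed and PPP1R15A, at −0.93, did not. FN1 and CD68, given above, also separate si-LY6E-DT and si-NC from the RIP input as well as from the library labelled si-HNRNPC, and their part in these differences was not tested.

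Of 22 other ATF4-linked genes in the library labelled si-HNRNPC, 4 rose and 3 fell with si-NC as control (median 0.08), near the 12.4% of all genes that rose and the 9.44% that fell, so single genes are given as values only. GDF15, a stress cytokine, stood at 36.1 FPKM in that library, 0.257 in si-NC and 28.9 in the RIP input, and CEBPB, which dimerises with ATF4, at 133 FPKM in that library, 47.6 in si-NC and 106 in the RIP input. GADD45A went the other way, at 9.21 FPKM in that library, 55.2 in si-NC and 24.04 in the RIP input, and VEGFA stood at 3.65 FPKM in that library and 11.6 in si-NC. Of 10 genes of serine, glycine, one-carbon and proline synthesis, 2 rose and none fell in that library with si-NC as control (median −0.05), beside the same shares of all genes. SHMT2, of one-carbon metabolism, was 1 of the 2 that rose, at 58.1 FPKM in that library, 21.4 in si-NC and 38.9 in the RIP input. For GDF15 and CEBPB the input thus lay nearer to the labelled knockdown than to si-NC, as for DDIT3 and PPP1R15A; values of the input for these genes were added after being seen.

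The translation, protein folding and transport lists are given beside the same shares of all genes, 12.4% rising and 9.44% falling, and a median of 0.04. Of 20 tRNA synthetases none rose and 4 fell (median −0.40), among them TARS at 46.3 FPKM in that library, against 112 in si-NC. Of 19 genes of the eIF2 list 2 rose and 3 fell (median −0.41), and EIF2S3, a subunit of eIF2, fell, at 35.5 FPKM in that library, against 102 in si-NC. Of 20 genes of the IRE1 and ATF6 arms 3 rose and 2 fell (median −0.13), and these counts and those of the eIF2 list are close to the shares of all genes. In that list HERPUD1, which serves the degradation of misfolded proteins, stood at 14.6 FPKM in that library, against 3.40 in si-NC. HSP90B1, a chaperone of the endoplasmic reticulum, stood at 58.4 FPKM in that library, against 213 in si-NC. Of 8 amino acid transporters 1 rose and 1 fell (median 0.33), with SLC1A5 at 64.3 FPKM in that library, against 26.5 in si-NC, and SLC7A5, the large neutral amino acid carrier, at 43.3 FPKM in that library, against 94.1 in si-NC.

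**Figure D3:**
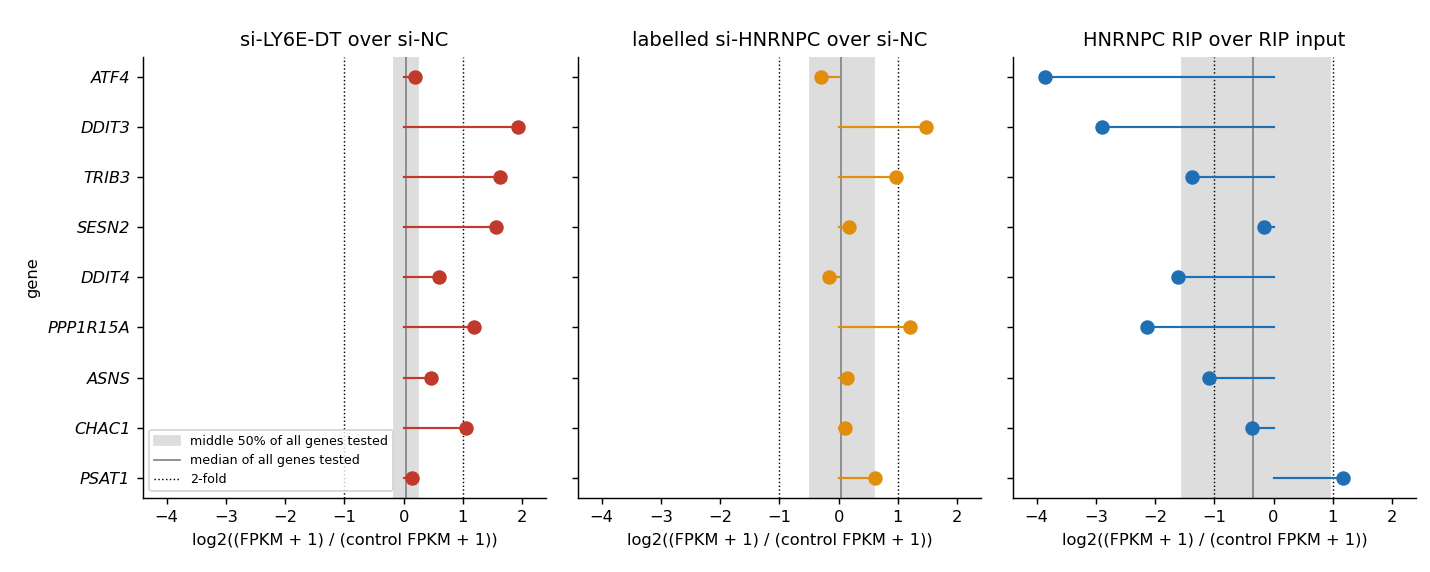
Log2 change of the 9 members that passed the filter (rows) in si-LY6E-DT over si-NC, the library labelled si-HNRNPC over si-NC, and the HNRNPC immunoprecipitate over its input. Grey bands hold the middle 50% of all genes tested and dotted lines mark 2-fold; in the immunoprecipitate ATF4 lies farthest to the left, at −3.87, and PSAT1 farthest to the right, at 1.18.

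The immunoprecipitation asks which mRNAs travel with HNRNPC, and most members were depleted from it. ATF4 fell by 3.87 on the log2 scale against its input and was lower by more than all but 1.16% of the 10284 genes tested. DDIT3 fell by 2.90, PPP1R15A by 2.13, DDIT4 by 1.61, TRIB3 by 1.38 and ASNS by 1.08. CHAC1 (−0.36) and SESN2 (−0.16) were within 2-fold, and PSAT1 rose by 1.18. In all, 6 of 9 fell and 1 rose, where 36.9% of all genes fell and 24.2% rose, so that depletion was common in this library. The median of all genes was −0.34, and the members' median was −1.38. Centred on that median, 30.3% of genes rose and 29.4% fell, ATF4 was at −3.52, DDIT3 at −2.56 and PSAT1 at 1.52, and ASNS, at −0.74, no longer passed.

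The 3′ UTRs of the members were read for the U-rich stretches that HNRNPC is known to bind, counted as runs of at least 5 U in 1 GENCODE 29 transcript per gene. PSAT1 had 7 such runs, DDIT4 had 3, SESN2 had 2, PPP1R15A had 1, and ATF4, DDIT3, TRIB3, ASNS and CHAC1 had 0. STC2, not listed in the immunoprecipitate or its input, had 5. Of these runs, 2 of the 7 in PSAT1, the enriched member, and 1 of the 3 in DDIT4, a depleted one, are shown as examples, in DNA letters with T for U, with the run in capitals. The PSAT1 sites lie at bases 116 to 139 and 80 to 103 of a 3′ UTR of 1007 bases, and the DDIT4 site at bases 804 to 827 of 848.
PSAT1 first site: agattcttcTTTTTTgaaagaaca
PSAT1 second site: aacacagtaTTTTTctcaaatgaa
DDIT4: tatgcaataTTTTTTacttttcta
These are matches to letters in the annotation and not measured binding sites. No U run in either gene was longer than 6 bases. Per length the order was another: PPP1R15A, which fell, had 11.9 runs per kilobase of 3′ UTR, against 6.95 in PSAT1. The PPP1R15A value rests on 1 run in a 3′ UTR of only 84 bases. Among the members with 0 runs the 3′ UTRs of ATF4 (81 bases), ASNS (141) and DDIT3 (221) were also short, while those of CHAC1 (745) and TRIB3 (869) were longer.

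Over all genes the change in the immunoprecipitate was higher where there were more runs. The median log2 change was −1.82 for 2031 genes with 0 runs, −1.15 for 3005 genes with 1 to 3 runs, 0.05 for 2410 genes with 4 to 9 runs and 1.29 for 2777 genes with 10 or more. Of the genes with 0 runs 5.81% rose, of those with 1 to 3 runs 5.16%, of those with 4 to 9 runs 20.4%, and of those with 10 or more 61.4%. The shares that fell were 75.7% at 0 runs, 55.6% at 1 to 3, 18.2% at 4 to 9 and 4.21% at 10 or more. Of the 9 members, 5 lay in the class of 0 runs and 3 in that of 1 to 3 runs, where most genes fell. Within the class of 0 runs, ATF4 and DDIT3 lay below the class median, and CHAC1, ASNS and TRIB3 above it. PSAT1 lay above the median of its class. These classes also differ in GC content and length, with a median GC of 57.8% and a median transcript of 1818 bases at 0 runs, against 41.4% and 5614 bases at 10 or more. The members are mostly GC-rich and short: 6 of 9 lay in the highest of 4 GC bins, whose median change was −1.54, and CHAC1, DDIT3 and DDIT4 in the lowest of 4 length bins, whose median change was −1.70. After the median of genes of like GC was taken away, ATF4 (−2.68), DDIT3 (−2.46) and ASNS (−1.22) still passed 2-fold and PPP1R15A (−0.70), DDIT4 (−0.18) and PSAT1 (0.66) did not. TRIB3 came to 0.14, and SESN2 (1.27) and CHAC1 (1.15) passed in the upward direction. How much each of U runs, GC content and length moved with the depletion of single members was not tested.

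**Figure D4:**
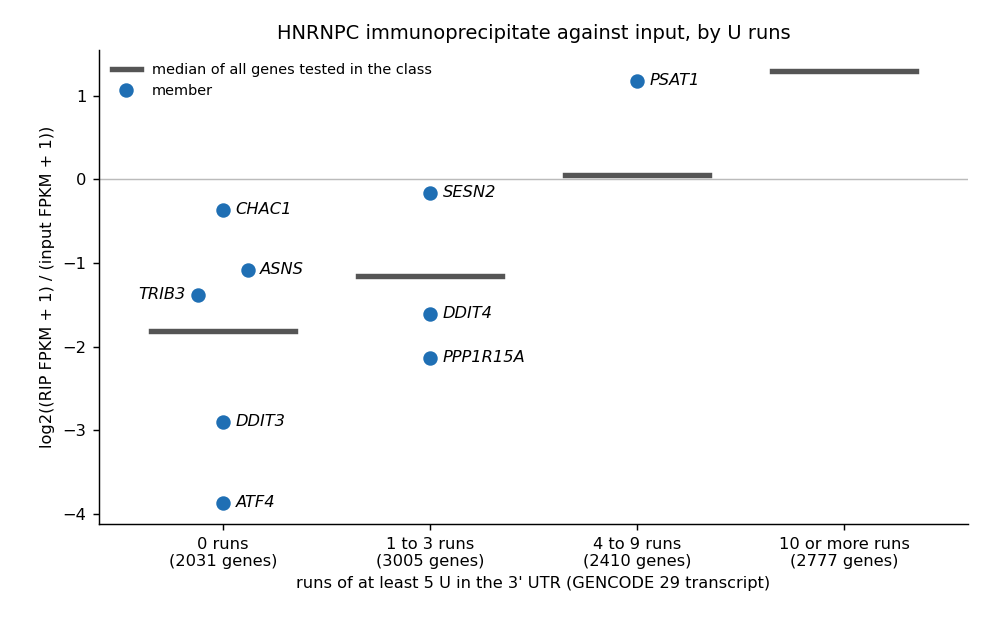
Log2 change of the HNRNPC immunoprecipitate over its input (vertical axis) for the 9 members, placed by the number of runs of at least 5 U in the 3′ UTR, with the median of all genes of each class as a grey bar. The class medians climb with the number of runs, ATF4 and DDIT3 lie below the median of genes with 0 runs, and PSAT1 lies above that of genes with 4 to 9.

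Related genes lay on both sides in the immunoprecipitate, as did all genes, of which 24.2% rose and 36.9% fell. PPP1R15B, the constitutive counterpart of PPP1R15A, stood at 142 FPKM in the immunoprecipitate and 19.9 in the input, whereas PPP1R15A stood at 26.4 FPKM in the immunoprecipitate and 119 in the input. Likewise SESN3, a relative of SESN2, stood at 16.7 FPKM in the immunoprecipitate and 1.13 in the input, whereas SESN2 stood at 1.92 FPKM in the immunoprecipitate and 2.26 in the input. ATF5, a close relative of ATF4, also fell, at 0.274 FPKM in the immunoprecipitate and 11.9 in the input. Of 7 amino acid transporters, 4 rose and 2 fell, with SLC38A2 at 284 FPKM in the immunoprecipitate against 27.5 in the input, and SLC7A11, the cystine carrier, at 127 against 7.18. Of 10 genes of serine, glycine, one-carbon and proline synthesis, 2 rose and 5 fell, and the 2 were MTHFD2 (17.7 FPKM in the immunoprecipitate, 4.39 in the input) and PSPH (17.97 and 6.45 FPKM), which acts right after PSAT1 in serine synthesis. Of 20 tRNA synthetases 18 fell and none rose (median −1.88), with FARSA at 2.89 FPKM in the immunoprecipitate against 39.5 in the input. The eIF2 list had 5 rising and 9 falling of 19, near the shares of all genes, with EIF2AK2, the kinase that senses double-stranded RNA, at 24.1 FPKM in the immunoprecipitate against 4.93 in the input. EIF2S2, a subunit of eIF2, was at 19.3 FPKM in the immunoprecipitate against 182 in the input. Among 22 other ATF4-linked genes 9 rose and 9 fell (median 0.80), with EIF4EBP1, a brake on cap-dependent translation, at 4.10 FPKM in the immunoprecipitate against 68.4 in the input. The IRE1 and ATF6 list had 6 rising and 8 falling of 20, also near those shares, with EDEM1 at 137 FPKM in the immunoprecipitate against 14.1 in the input and HSPA5 at 43.3 against 526.

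The members varied in their profile over the 5 libraries. Profiles were compared as log2(FPKM + 1) centred on each gene's mean, by Euclidean distance to the median profile of the 7 members with a mean FPKM of at least 5, which was 0.76 in si-LY6E-DT, 0.58 in the library labelled si-HNRNPC, 0.06 in si-NC, −1.49 in the HNRNPC immunoprecipitate and 0.49 in the RIP input. Among 6572 genes PPP1R15A was the nearest member (distance 0.59, rank 144) and PSAT1 the farthest (2.30, rank 4216). The nearest genes outside the list were AKAP8L (0.23), SIL1 (0.23), SHB (0.31), POLR3C (0.32) and TUBGCP2 (0.32), all closer to this profile than PPP1R15A was.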

How the data were processed

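RNA of 5 MDA-MB-231 libraries was sequenced, 1 library per group. The authors deposited 1 FPKM value per gene and library, per the file headers; per the submitters' processing notes, HISAT2 2.1.0, StringTie 1.3.3, cutadapt 1.17 and FastQC 0.11.7 were used with GRCh37, in roles and settings not given in the sources used here. The low FPKM showed no whole-read steps, so depth is unknown and no count test was used. The si-LY6E-DT and si-NC tables list the same genes, as do both RIP tables, while the table labelled si-HNRNPC has 419 genes that si-NC lacks. Changes were computed as in the report over all genes listed in both libraries, in Python 3.11.15 with numpy 2.4.6, pandas 2.3.3 and matplotlib 3.10.9. The code for the calls was checked on si-NC values with planted changes and a small set noise. That check says nothing of the spread between real libraries. Positions, transcripts and exon sharing come from GENCODE 29 and promoters from RefSeq, both on GRCh38; nothing was converted between builds. The members, lists and tests were chosen with earlier results of these data known. Genes named beside the members are the 2 largest rises and 2 largest falls of a list past 2-fold at a mean FPKM of at least 5, or else the farthest gene, and the 5 nearest profiles; ATF3 and BCL2L11 and values given for a named gene in a further library were added after seeing them. Alternatives were other pseudocounts (0.1 and 5), no filter or a filter of 5, centring, quantile normalization, rescaling to the sum that is left once mitochondrial mRNAs, ribosomal protein mRNAs and the 20 highest genes are dropped, correction in 20 GC bins, and fold thresholds of 1.5 and 4. The RIP input as control and leaving out genes that share exons were added later.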

Additional observations from a re-analysis of the deposited data

How the results depend on the processing

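No paired analysis was possible because each group is 1 library, and no replicate could be left out; a log2 value is said to have moved when it changed by 0.585 or more, and a count when it changed by more than 1.5 times. For si-LY6E-DT against si-NC, 5 rising members became 3 after the GC correction and 0 at a 4-fold threshold. With si-NC as control, in the library labelled si-HNRNPC 2 rising members became 1 under quantile normalization, the GC correction and with genes sharing exons left out, 4 at 1.5-fold and 0 at 4-fold. Rescaling left that count at 2 but turned the split of all genes from 12.4% rising and 9.44% falling to 9.23% and 12.4%, with the median of all genes at −0.11 in place of 0.04. For the immunoprecipitate against its input, the GC correction gave 2 rising and 3 falling members, a median of −0.18 and TRIB3 at 0.14, the 4-fold threshold gave 0 rising and 3 falling, rescaling gave 5 falling with the median of all genes at −0.10 in place of −0.34, and the median was −0.69 with a pseudocount of 5 and −2.13 with a filter of 5. With the RIP input as its control, the library labelled si-HNRNPC had other counts: rising members numbered 2 with a pseudocount of 0.1, 4 at 1.5-fold and 0 at 4-fold, and 1 fell after centring, after the GC correction and at 1.5-fold. For si-NC against the RIP input, rising members numbered 2 at 1.5-fold and 0 at 4-fold, and falling members 1 under quantile normalization and without genes sharing exons and 0 at 4-fold. The cause of these shifts was not tested; TRIB3 was the only member called in a comparison whose sign turned under any of these settings. Without the filter STC2 passed 2-fold in si-LY6E-DT, at 1.23.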
